A study of Mus musculus with 3 samples.

Results

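The Rab proteins are the largest family of small GTPases that direct vesicle traffic, and 56 Rab genes were measured among the 19505 named genes of an array study of cholesterol-treated mouse CD8 T cells. Members were all genes whose symbol is Rab followed by a number and an optional letter, which leaves out genes for Rab-interacting proteins. Each had 1 probe set, and all 56 gene identifiers matched the RefSeq gene table of the assembly GRCm38.p6. That table holds 59 protein-coding genes of this name pattern, and Rab4b, Rab36 and Rab44 were not analysed here.

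All cells were CD8 cells, stimulated through CD3 and CD28 per the series title and kept in Tc1 cytokines, conditions that favour cytotoxic effector cells. The control received no cholesterol treatment, and the other cultures received 0.5 or 0.75 µg/ml cholesterol. Every condition had 1 array of total RNA, so no difference below has a replicate check or a test, and precision is limited by the number of arrays. The labels give no strain, age, number of animals or cultures, duration or carrier, and effects of carrier and cholesterol cannot be told apart.

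A Rab protein is inactive when bound to GDP and active when bound to GTP. Exchange factors load GTP, GTPase-activating proteins speed its hydrolysis, and active Rab proteins recruit effectors that move, tether or fuse vesicles. A prenyl lipid anchors the protein in the membrane, and GDP dissociation inhibitors extract the inactive form. In cytotoxic T cells, Rab27a is known for docking lytic granules at the plasma membrane, and Rab7 and Rab9 serve late endosomes, from which cholesterol taken up in lipoproteins is redistributed.

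Median linear intensity was 32.5 on the control array, 32.4 at the low dose and 33.0 at the high dose. All 8 measured CD8 T cell markers were above background on every array. Cd8a, a chain of the CD8 coreceptor, was at 4225 on the control array, 4164 at 0.5 and 3313 at 0.75 µg/ml. The 3 markers Cd8a, Cd8b1 and Cd3d were lower at the high dose than in the control, with log2 differences of -0.35, -0.34 and -0.34, and the other 5 lay between -0.18 (Ifng) and 0.10 (Gzmb). The part of these marker differences in the Rab values was not tested. Of 21 measured markers of other cell types, 20 were under background on every array, Cd4 among them. The exception was the mast cell and progenitor gene Kit, at 133 on the control array, 88.3 at 0.5 and 42.4 at 0.75 µg/ml. In RNA from a whole culture, fewer cells of a type and less RNA per cell cannot be told apart.

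Promoters of 5 members are shown because their letters match motifs of pathways that respond to lysosomal load, sterols or interferon. The motifs were the E-box (CACGTG), the CLEAR element of lysosomal genes (the E-box with GT before it and AC after it), the sterol regulatory element (TCACNCCAC), the interferon-stimulated response element (GAAA, any 2 bases, then GAAA) and the NRF2 element (TGACNNNGC). Each was searched on both strands, in RefSeq windows from 250 bases before to 50 after an annotated start, on GRCm38.p6. Capitals mark every match, a reverse-strand match appears as its reverse complement, and matches that overlap run together.
Rab5a, chr17:53478984-53479283, + strand: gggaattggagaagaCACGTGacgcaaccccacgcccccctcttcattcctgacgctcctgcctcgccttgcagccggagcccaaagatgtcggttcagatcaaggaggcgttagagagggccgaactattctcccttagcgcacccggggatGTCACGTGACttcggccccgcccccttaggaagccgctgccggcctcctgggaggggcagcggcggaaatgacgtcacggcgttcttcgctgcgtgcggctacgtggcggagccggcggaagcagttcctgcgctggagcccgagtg
Rab21, chr10:115315542-115315841, - strand: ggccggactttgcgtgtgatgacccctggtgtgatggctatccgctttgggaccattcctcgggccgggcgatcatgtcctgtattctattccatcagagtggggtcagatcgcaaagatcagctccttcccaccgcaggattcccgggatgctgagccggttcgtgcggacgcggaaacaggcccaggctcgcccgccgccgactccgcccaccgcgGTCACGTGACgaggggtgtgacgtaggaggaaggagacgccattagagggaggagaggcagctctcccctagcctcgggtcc
Rab24, chr13:55321931-55322230, - strand: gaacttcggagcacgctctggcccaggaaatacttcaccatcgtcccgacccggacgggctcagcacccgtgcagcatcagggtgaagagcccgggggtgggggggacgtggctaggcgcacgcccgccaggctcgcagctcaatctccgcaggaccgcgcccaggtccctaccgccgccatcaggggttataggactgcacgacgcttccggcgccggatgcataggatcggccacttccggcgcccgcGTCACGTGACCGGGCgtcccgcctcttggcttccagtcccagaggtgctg
Rab3a, chr8:70754852-70755151, + strand: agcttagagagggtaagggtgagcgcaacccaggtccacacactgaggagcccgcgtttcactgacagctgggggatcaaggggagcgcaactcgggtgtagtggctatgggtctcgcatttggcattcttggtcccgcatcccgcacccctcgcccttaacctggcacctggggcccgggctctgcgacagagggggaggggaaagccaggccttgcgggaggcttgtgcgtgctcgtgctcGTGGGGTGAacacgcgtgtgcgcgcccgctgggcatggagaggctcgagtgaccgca
Rab19, chr6:39381103-39381402, + strand: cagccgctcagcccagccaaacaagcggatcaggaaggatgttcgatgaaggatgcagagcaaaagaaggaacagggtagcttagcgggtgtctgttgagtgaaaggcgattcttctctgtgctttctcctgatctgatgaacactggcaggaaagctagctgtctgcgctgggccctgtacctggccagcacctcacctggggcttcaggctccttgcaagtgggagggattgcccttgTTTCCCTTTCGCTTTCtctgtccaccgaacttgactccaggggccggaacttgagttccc

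Windows were given for 47 of the 56 Rab genes. The CLEAR letters stood in 3 of them, Rab5a, Rab21 and Rab24, or 6.38%, against 0.370% of 27025 genes with a window. In Rab5a they began 97 bases before the start, in Rab21 32 bases before it, and in Rab24 at base 1 of the transcript, where an NRF2 match overlaps them. E-box letters stood in 6 Rab windows, 12.8%, against 8.09% of all genes, and every CLEAR match holds an E-box. Sterol regulatory letters were found in 1 Rab gene, Rab3a, 7 bases before the downstream of its annotated starts, or 2.13% against 1.44%. Interferon-response letters were found in Rab19 alone, also 2.13%, against 3.99% of all genes, as overlapping matches 10 and 4 bases before the start. NRF2 letters stood in 8 Rab windows, 17.0% against 14.0%. A match is a description of the letters and not a binding site, and no test was made of these shares.

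Of the 56 Rab genes, 30 were above background on all 3 arrays, 2 on some arrays and 24 on none. Background here is 102, the highest of the arrays' 95th percentiles of 5222 negative-control probe sets, and 31 Rab genes exceeded it on each single array. Of all genes, 39.4% exceeded it on the control array, 39.5% at the low dose and 39.0% at the high dose. The intensities of one probe set cannot be set against those of another, so each gene is compared below only with itself across arrays. Closest above the threshold by its lowest value was Rab43, at 104, and closest below it by its highest value Rab6b, at 92.4.

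**Figure D1:**
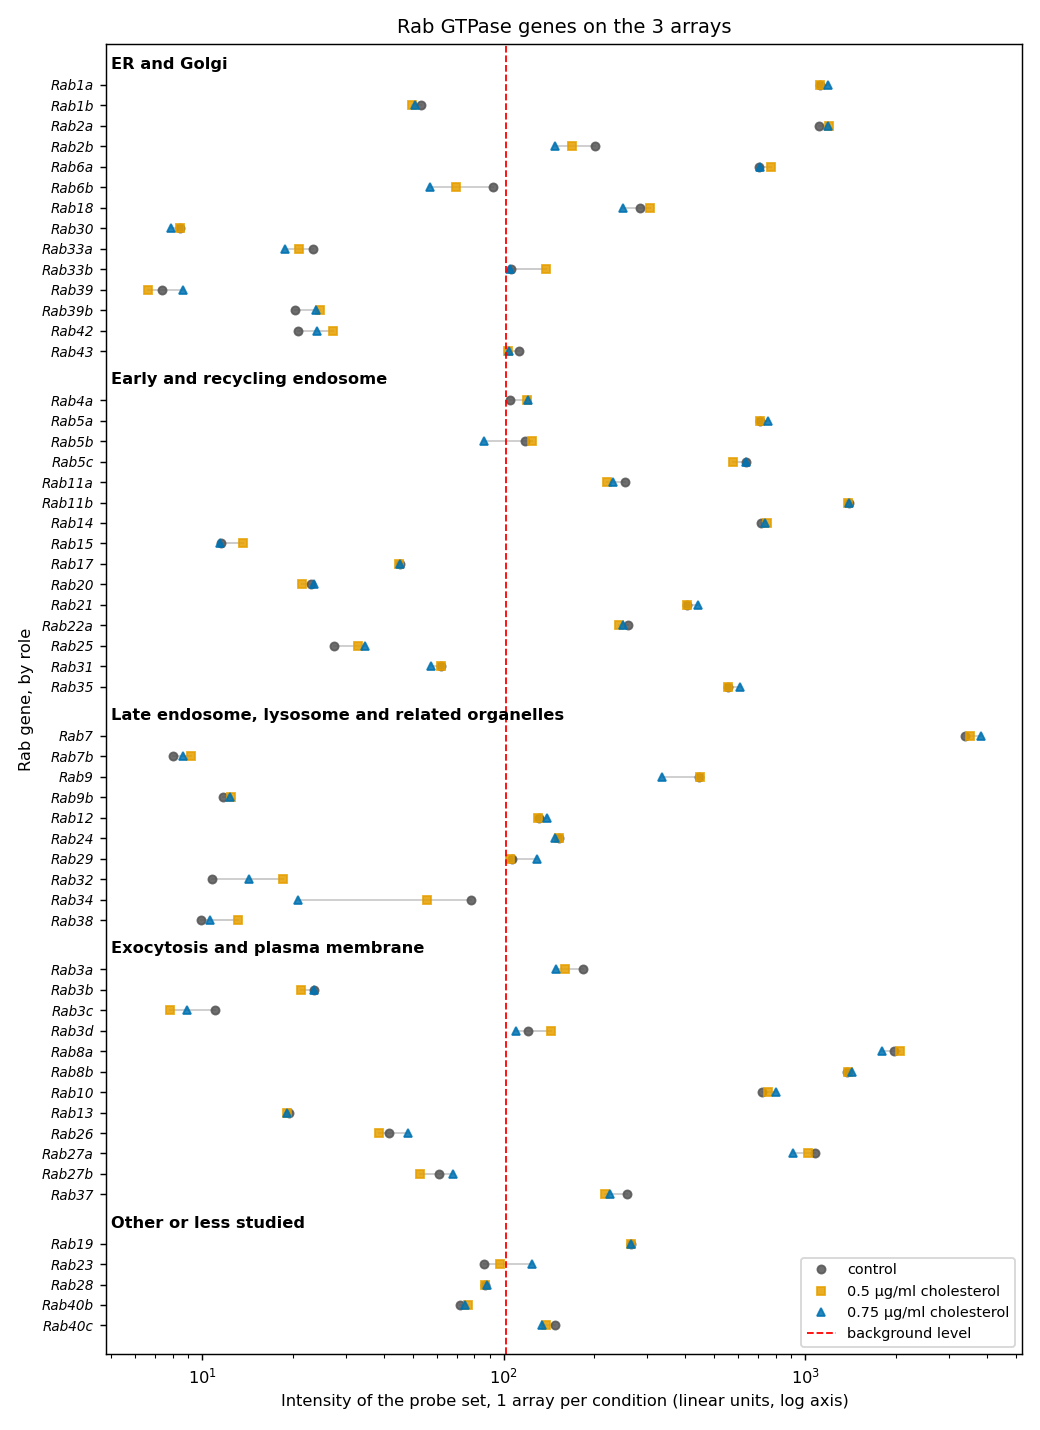
Intensity of each of the 56 Rab genes on a log axis, grouped by role, with 1 point per array (circle, control; square, 0.5 µg/ml; triangle, 0.75 µg/ml cholesterol) and the background level of 102 as a dashed line. The 3 points of most genes to the right of the line lie close together, and the widest spread belongs to Rab34, left of it.

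At 0.75 µg/ml cholesterol, 2 of the 41 Rab genes that passed a level filter were at least 1.5-fold lower than in the control and 0 higher. The filter asked for a mean log2 value of at least 5.02. The genes were Rab34 and Rab6b, and both lay under background on every array. Of 10940 genes past the filter, 7.08% differed 1.5-fold at this dose, 4.55% lower and 2.53% higher. The Rab share in either direction, 4.88%, was not above the 7.08%. Both Rab genes were lower, and 4.88% lay near the 4.55% of all genes that were lower. At 0.5 µg/ml the count was 0 of 41, against 1.94% of genes, and between the doses it was 1, Rab34, against 5.52%.

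Among Rab genes whose mean over the arrays was above background, 31 in number, none differed 1.5-fold from the control at 0.75 µg/ml, where 5.55% of the 7656 genes of that level did. This narrower level was chosen after the values were seen. The median log2 difference of the 31 was 0.00 with an SD over genes of 0.19, and that of the 7656 genes 0.00 with an SD of 0.33. Differences were under 1.2-fold for 26 of the 31, or 83.9%, against 72.1% of genes. The other 5 were Rab2b, Rab9, Rab3a and Rab5b, lower at 0.75 µg/ml, and Rab29, higher. Rab5b counts by its measured value, which was under background at that dose, so that only a bound of at least 1.15-fold holds for it. These are descriptions of the arrays, and no test set the Rab genes against the rest.

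At 0.5 µg/ml none of the 31 differed 1.5-fold either, where the share of genes of that level was 0.614%. Their median was 0.00 with an SD of 0.14, against 0.01 and 0.17 for the 7656 genes, and only Rab33b differed by 1.2-fold or more. Differences were under 1.2-fold for 96.8% of the 31 and for 88.9% of the 7656 genes. Between the doses the median was 0.00 with an SD of 0.19, against -0.01 and 0.29, and again 0 of the 31 differed 1.5-fold, against 4.51% of genes. In that comparison Rab5b, Rab9, Rab33b, Rab3d and Rab18 were lower by at least 1.2-fold at 0.75 µg/ml and Rab29 was higher. The share under 1.2-fold was 80.6% of the 31, near the 77.4% of the 7656 genes.

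**Figure D2:**
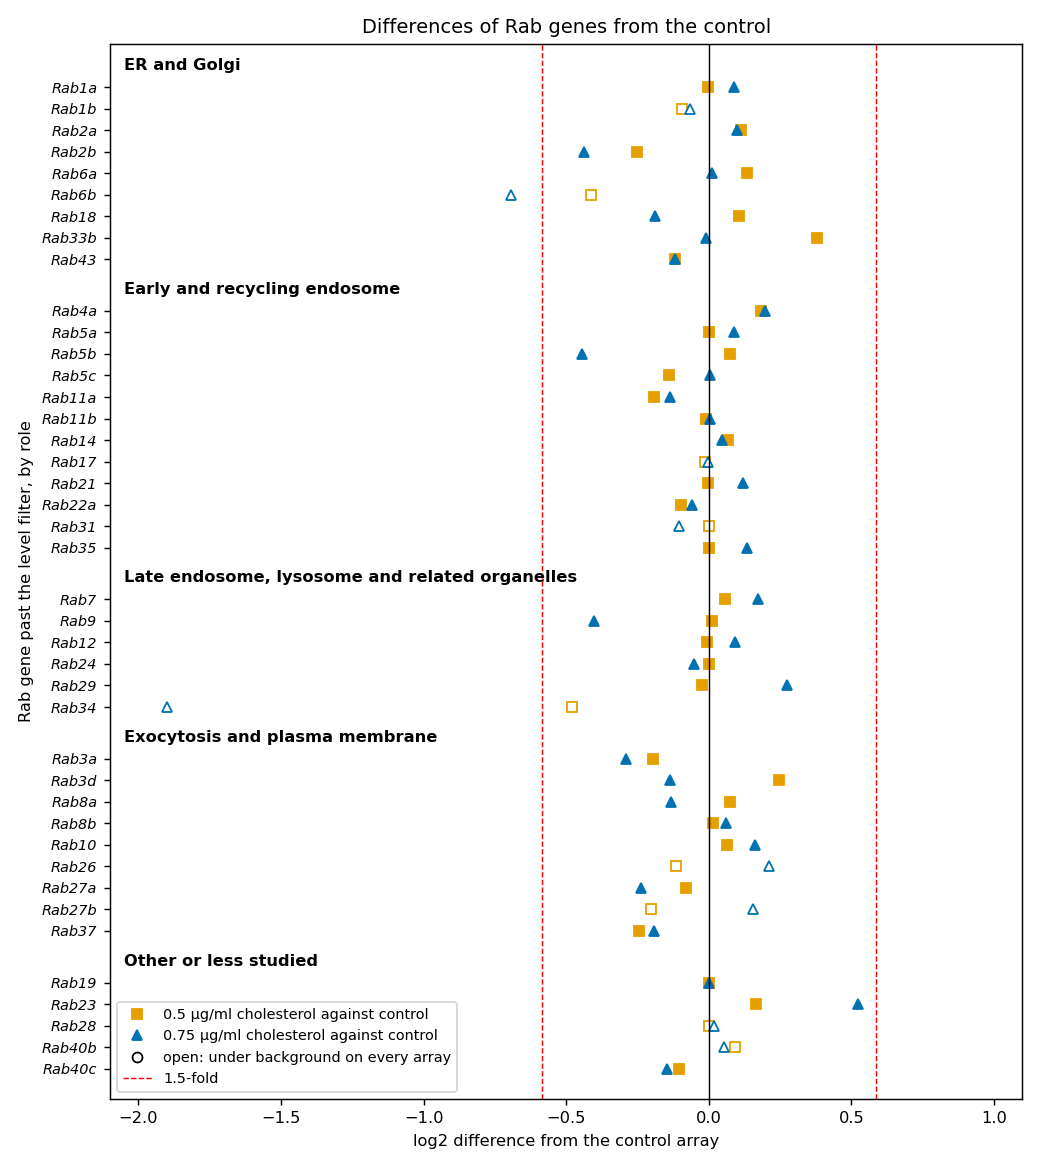
The log2 difference from the control array of the 41 Rab genes past the level filter, grouped by role (squares, 0.5 µg/ml; triangles, 0.75 µg/ml), with 1.5-fold as dashed lines and open symbols for genes under background on every array. All filled symbols lie between the dashed lines, and the symbols beyond them, Rab34 and Rab6b, are open.

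Rab genes of the endoplasmic reticulum and Golgi numbered 14, of which 7 were above background on all arrays. Rab1a, needed for transport from the endoplasmic reticulum to the Golgi, was at 1118 on the control array, 1117 at 0.5 and 1189 at 0.75 µg/ml. Rab2a, which acts between these compartments and in Golgi structure, was at 1112 on the control array, 1203 at 0.5 and 1192 at 0.75 µg/ml. Their high-dose arrays exceeded the control by 0.09 for Rab1a and 0.10 for Rab2a on the log2 scale. Rab2b, the close relative of Rab2a, was at 201 on the control array, 169 at 0.5 and 149 at 0.75 µg/ml. Both cholesterol arrays were lower than the control, with log2 differences of -0.25 at 0.5 and -0.44 at 0.75 µg/ml, the high-dose value being the most negative difference among the 30 genes above background on every array.

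Rab6a, a regulator of traffic back from the Golgi, was at 705 on the control array, 774 at 0.5 and 711 at 0.75 µg/ml. It was highest at 0.5 µg/ml, by 0.13 over the control, and nearly level with the control at 0.75 µg/ml, with a difference of 0.01. Rab18, found on the endoplasmic reticulum and on lipid droplets, was at 284 on the control array, 305 at 0.5 and 249 at 0.75 µg/ml, with log2 differences of 0.10 at the low dose and -0.19 at the high dose. Rab33b, a Golgi Rab that also binds the autophagy factor ATG16L1, was at 106 on the control array, 138 at 0.5 and 105 at 0.75 µg/ml. Its log2 difference of 0.38 at 0.5 µg/ml was the widest of the 30 genes at that dose, and at 0.75 µg/ml it was -0.01. Rab43, another Golgi Rab, was at 113 on the control array, 104 at 0.5 and 104 at 0.75 µg/ml, just over background throughout. Rab1b, the close relative of Rab1a, was under background, at 53.2 on the control array, 49.8 at 0.5 and 50.8 at 0.75 µg/ml. So was Rab6b, a form of Rab6 known from brain, at 92.4 on the control array, 69.3 at 0.5 and 57.1 at 0.75 µg/ml. Rab6b was dimmer on both cholesterol arrays than on the control, without a fold since no array measured it above background. Rab30, Rab33a, Rab39, Rab39b and Rab42 also stayed under it.

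Rab genes of early and recycling endosomes numbered 15, with 9 above background on all arrays, and none of these 9 differed by 1.2-fold at either dose. Of all 7309 genes above background on the 3 arrays, 90.1% at 0.5 and 73.6% at 0.75 µg/ml also differed by under 1.2-fold. The median log2 difference of the 9 genes from the control was 0.00 at 0.5 and 0.05 at 0.75 µg/ml. Rab5 proteins govern early endosome fusion. Rab5a was at 708 on the control array, 708 at 0.5 and 752 at 0.75 µg/ml. Rab5c was at 634 on the control array, 576 at 0.5 and 636 at 0.75 µg/ml, lowest at the low dose. Rab5b was at 118 on the control array, 124 at 0.5 and 86.3 at 0.75 µg/ml, under background only at the high dose, which makes it at least 1.15-fold lower than in the control and at least 1.22-fold lower than at 0.5 µg/ml. The 3 Rab5 genes therefore had log2 differences of 0.09 for Rab5a and 0.00 for Rab5c at 0.75 µg/ml beside a lower Rab5b, and no test of the difference between them was possible. Whether the probe sets tell such close relatives apart was not tested.

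Recycling to the plasma membrane runs by a fast route through Rab4 and a slower one through Rab11. Rab4a was at 105 on the control array, 119 at 0.5 and 121 at 0.75 µg/ml, slightly higher on both cholesterol arrays. Rab11a was at 252 on the control array, 220.5 at 0.5 and 229.7 at 0.75 µg/ml, slightly lower on both. Rab11b was at 1399.7 on the control array, 1389 at 0.5 and 1403 at 0.75 µg/ml, with log2 differences of -0.01 at the low dose and 0.00 at the high dose. Rab14, which links the Golgi and endosomes, was at 712 on the control array, 745 at 0.5 and 735 at 0.75 µg/ml. Rab21, known for integrin endocytosis, was at 406 on the control array, 405 at 0.5 and 441 at 0.75 µg/ml. Rab22a, of early and recycling endosomes, was at 259 on the control array, 242 at 0.5 and 249 at 0.75 µg/ml, slightly lower at both doses than in the control. Rab35, a recycling Rab that has been placed at the immunological synapse, was at 557 on the control array, 557 at 0.5 and 610.2 at 0.75 µg/ml. Rab21 and Rab35 shared a pattern of control and low-dose arrays that nearly coincided and a high-dose array that was higher, by 0.12 for Rab21 and 0.13 for Rab35. Both steps were below 0.15, the median absolute log2 difference at that dose of the 7656 genes with a mean above background. Rab15, Rab17, Rab20, Rab25 and Rab31 were under background on every array.

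Rab genes of late endosomes, lysosomes and lysosome-related organelles numbered 10, with 5 above background on all arrays. Rab7, the main Rab of late endosome and lysosome fusion, was at 3392 on the control array, 3533 at 0.5 and 3827 at 0.75 µg/ml, and the high-dose array exceeded the control by 0.17 on the log2 scale. Rab9, which returns mannose 6-phosphate receptors from late endosomes to the Golgi, was at 444 on the control array, 447 at 0.5 and 335 at 0.75 µg/ml. Its control and low-dose arrays nearly coincided, and the high-dose array was lower, with log2 differences of -0.40 from the control and -0.42 from the low dose. Rab7 and Rab9, both of late endosomes, thus lay on opposite sides of the control at 0.75 µg/ml, each by less than 1.5-fold. The 0.17 of Rab7 was near 0.15, the median absolute log2 difference at that dose of the 7656 genes with a mean above background.

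Rab29, a Golgi and lysosome Rab linked to the kinase LRRK2, was at 106 on the control array, 105 at 0.5 and 129 at 0.75 µg/ml, and its high-dose difference of 0.28 was the most positive of the 30 genes. Rab12, which routes transferrin receptors to lysosomes, was at 131 on the control array, 130.2 at 0.5 and 139.5 at 0.75 µg/ml. Rab24, linked to the clearance of autophagosomes, was at 153 on the control array, 153 at 0.5 and 148 at 0.75 µg/ml. The 3 genes with CLEAR letters in their windows, Rab5a, Rab21 and Rab24, had high-dose differences of 0.09, 0.12 and -0.05. Rab34, known for lysosome positioning and cilia, was at 77.7 on the control array, 55.7 at 0.5 and 20.8 at 0.75 µg/ml. It was dimmer at each dose step and under background on all arrays. Kit was dimmer in the same order of arrays, and so were the T cell markers Cd4, Cd8a and Cd3d. Cd4 was under background on every array, and the low-dose differences were only -0.02 for Cd8a and -0.004 for Cd3d. The other T cell markers, Cd8b1, Cd3e, Cd3g, Gzmb, Ifng and Tbx21, did not have this order. Among the other 5 neutrophil and mast cell markers, Fcer1a and Mcpt4 had this order by small steps and S100a8, S100a9 and Cpa3 did not. All 5 were under background on every array, with sums of 55.1 on the control array, 54.5 at the low dose and 70.8 at the high dose, and Cpa3, a mast cell protease, was brightest at the high dose, at 11.3 on the control array, 13.4 at 0.5 and 29.8 at 0.75 µg/ml. The part of such cells in the Rab34 values was not tested. Rab32 and Rab38, of melanosomes and other lysosome-related organelles, and Rab7b and Rab9b stayed under background, between 7.99 and 18.5.

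Rab genes of exocytosis and the plasma membrane numbered 12, with 7 above background on all arrays. Rab27a was at 1079 on the control array, 1021 at 0.5 and 915 at 0.75 µg/ml. Each cholesterol array was lower than the control by less than 1.2-fold, with log2 differences of -0.08 at 0.5 and -0.24 at 0.75 µg/ml. Its close relative Rab27b, which acts in granule release in other blood cells, was at 60.8 on the control array, 52.8 at 0.5 and 67.8 at 0.75 µg/ml, under background throughout. Rab37, known from secretory granules, was at 257 on the control array, 217 at 0.5 and 225 at 0.75 µg/ml, lower than the control by similar steps at both doses.

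Rab8a and Rab8b, which carry cargo from the Golgi to the plasma membrane, showed small differences on either side. Rab8a was at 1966 on the control array, 2069 at 0.5 and 1794 at 0.75 µg/ml, lowest at the high dose. Rab8b was at 1372 on the control array, 1388 at 0.5 and 1431 at 0.75 µg/ml, lowest in the control. Rab10, known for delivery of glucose transporters to the cell surface, was at 717 on the control array, 751 at 0.5 and 802 at 0.75 µg/ml, with a high-dose difference of 0.16. Rab3 proteins regulate secretory vesicle release, chiefly in neurons and secretory cells. Rab3a was at 183 on the control array, 159.7 at 0.5 and 149.7 at 0.75 µg/ml, and this member with sterol regulatory letters in its window differed from the control by -0.20 at 0.5 and -0.29 at 0.75 µg/ml. Rab3d was at 121 on the control array, 143 at 0.5 and 110.1 at 0.75 µg/ml, higher than the control at the low dose and lower at the high dose. Rab3b, Rab3c, Rab13 and Rab26 were under background on every array.

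Among the 5 remaining genes, Rab19 and Rab40c were above background on all arrays. Rab19, the member with interferon-response letters, was at 265 on the control array, 265 at 0.5 and 265 at 0.75 µg/ml, with a log2 difference of 0.00 at 0.75 µg/ml. Rab40c, which joins a ubiquitin ligase complex, was at 148 on the control array, 138 at 0.5 and 134 at 0.75 µg/ml. Rab23, an inhibitor of Hedgehog signalling, was at 86.4 on the control array, 97.0 at 0.5 and 124 at 0.75 µg/ml, above background only at the high dose, where it was at least 1.22-fold higher than in the control. Rab28 and Rab40b were under background on every array, between 71.7 and 87.8.

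Of the 24 Rab genes under background on all arrays, values ran from 6.62 to 92.4. At 0.5 µg/ml Rab32 was past 1.5-fold, at 18.5 against 10.7 in the control, both far under background and outside the level filter.

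Another family of small GTPases of vesicle traffic, the Arf, Arl and Sar genes, was chosen by name after the Rab values were seen. Of its 16 measured genes, 12 had a mean above background, and among the 3 comparisons the one difference of at least 1.2-fold was that of Arl2, at 197 at 0.5 µg/ml against 164 in the control. At 0.5 µg/ml against the control 91.7% of the 12 differed by under 1.2-fold, near the 88.9% of the 7656 genes. At 0.75 µg/ml the shares were 100% and 72.1%, and between the doses 100% and 77.4%. The SD of the log2 differences of the 12 from the control was 0.16 at 0.5 and 0.15 at 0.75 µg/ml, beside 0.14 and 0.19 for the 31 Rab genes. Arf1, a recruiter of Golgi vesicle coats, was at 2125 on the control array, 2172 at 0.5 and 2227 at 0.75 µg/ml. Neither family was tested against the other genes.

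**Figure D3:**
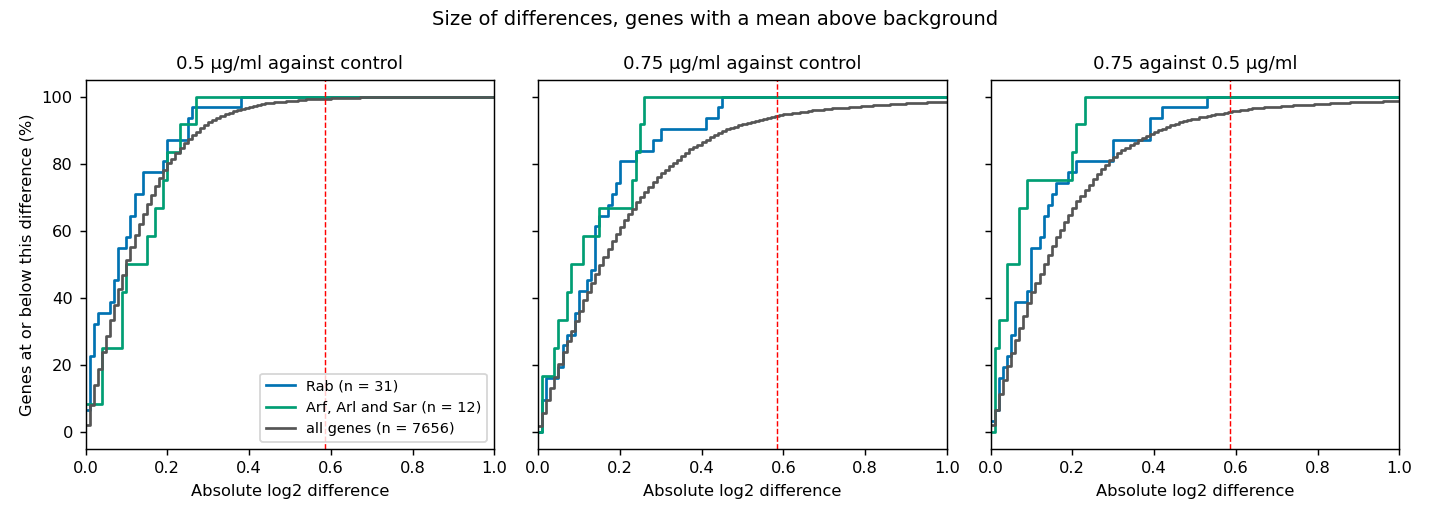
Share of genes, in percent, with an absolute log2 difference at or below the value on the horizontal axis, for 31 Rab genes, 12 Arf, Arl and Sar genes and 7656 genes in all, each with a mean above background, with 1.5-fold as a dashed line. In the 0.75 µg/ml comparisons the curves of both families reach 100% before the dashed line, and the curve of all genes does not. A curve reaches 100% at the largest difference of its set, which depends on the number of genes, so these end points do not compare the sets.

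Genes for proteins that act on or with Rab proteins were taken from a list of 114, of which 103 were measured and 89 passed the level filter. At 0.75 µg/ml 2 of the 89 were at least 1.5-fold higher and 1 lower, 3.37% against 7.08% of all genes past the filter. Their median log2 difference was -0.04, against 0.00 for all genes, with 34 above and 51 below the control, and was 0.019 with each array centred on the median of its kept genes. At 0.5 µg/ml 2 were higher and 0 lower, 2.25% against 1.94%, both of them under background on every array (Evi5 and Sytl2). Between the doses 7 of the 89 differed 1.5-fold, 4 higher and 3 lower at 0.75 µg/ml, 7.87% against 5.52% of all genes past the filter. The higher genes were Sytl1, Tbc1d2, Dennd5a and Hps1, and the lower ones Madd, Chml and Tbc1d16, named after their values were seen except for Sytl1 and Tbc1d2. Sytl1 and Dennd5a were above background on all arrays and Tbc1d16 on none.

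The higher genes at 0.75 µg/ml were Sytl1 and Tbc1d2. Sytl1, which encodes a synaptotagmin-like effector that binds Rab27, was at 375 on the control array, 376 at 0.5 and 601 at 0.75 µg/ml, 1.60-fold higher at the high dose, while the low-dose and control arrays nearly coincided. Tbc1d2, a GTPase-activating protein for Rab7, was at 70.0 on the control array, 70.2 at 0.5 and 125 at 0.75 µg/ml, at least 1.23-fold higher over background. Ric1, part of an exchange factor for Rab6, was at 111 on the control array, 81.6 at 0.5 and 72.9 at 0.75 µg/ml, at least 1.09-fold lower. Ric1's partner in that factor, Rgp1, was at 506 on the control array, 468 at 0.5 and 489 at 0.75 µg/ml. Madd, an exchange factor for Rab3 and Rab27, was at 101 on the control array, 122 at 0.5 and 78.6 at 0.75 µg/ml, lower at 0.75 than at 0.5 µg/ml, the one array above background. Hps1, part of an exchange factor for Rab32 and Rab38, was at 89.0 on the control array, 67.0 at 0.5 and 102 at 0.75 µg/ml, and its highest value barely exceeded background.

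Other partners of the Rab proteins described above differed less, and are given for their roles. Those named here were all higher at 0.75 µg/ml than in the control. Of the 89 listed genes past the filter, 34 were above the control at that dose and 51 below it. Unc13d, an effector of Rab27a that primes lytic granules for fusion, was at 198 on the control array, 179.5 at 0.5 and 225 at 0.75 µg/ml. The Rab7 exchange factor is a complex of Mon1 and Ccz1 proteins, and Mon1a was at 179 on the control array, 189.9 at 0.5 and 210.2 at 0.75 µg/ml. Its partner Ccz1 was at 277 on the control array, 275 at 0.5 and 309 at 0.75 µg/ml. Unc13d, Mon1a and Ccz1 had their highest value at 0.75 µg/ml, by under 1.2-fold over the control. Eea1, a tether recruited by Rab5, was at 193 on the control array, 211 at 0.5 and 218 at 0.75 µg/ml. Rabep1, another Rab5 effector, was at 401 on the control array, 395 at 0.5 and 405 at 0.75 µg/ml, with all arrays close together.

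Of the genes for prenylation and membrane extraction, all 6 measured passed the filter and none differed 1.5-fold from the control at either dose. Rabac1, named after its values were seen, was at 749 on the control array, 717 at 0.5 and 573 at 0.75 µg/ml. Its high-dose value was 1.31-fold lower than in the control, the widest such difference in this class among genes above background on all arrays. Gdi2, a GDP dissociation inhibitor, was at 1739.6 on the control array, 1721 at 0.5 and 1694 at 0.75 µg/ml, with all arrays close together. Rabggta, a subunit of the transferase that prenylates Rab proteins, was at 206 on the control array, 192 at 0.5 and 183 at 0.75 µg/ml. Chm, an escort protein that presents Rab proteins to that enzyme, was at 223 on the control array, 225 at 0.5 and 270.3 at 0.75 µg/ml. Its relative Chml was at 96.4 on the control array, 112 at 0.5 and 70.4 at 0.75 µg/ml, above background only at 0.5 µg/ml. Its direction at the high dose against the control was not measured, both values being under background.

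**Figure D4:**
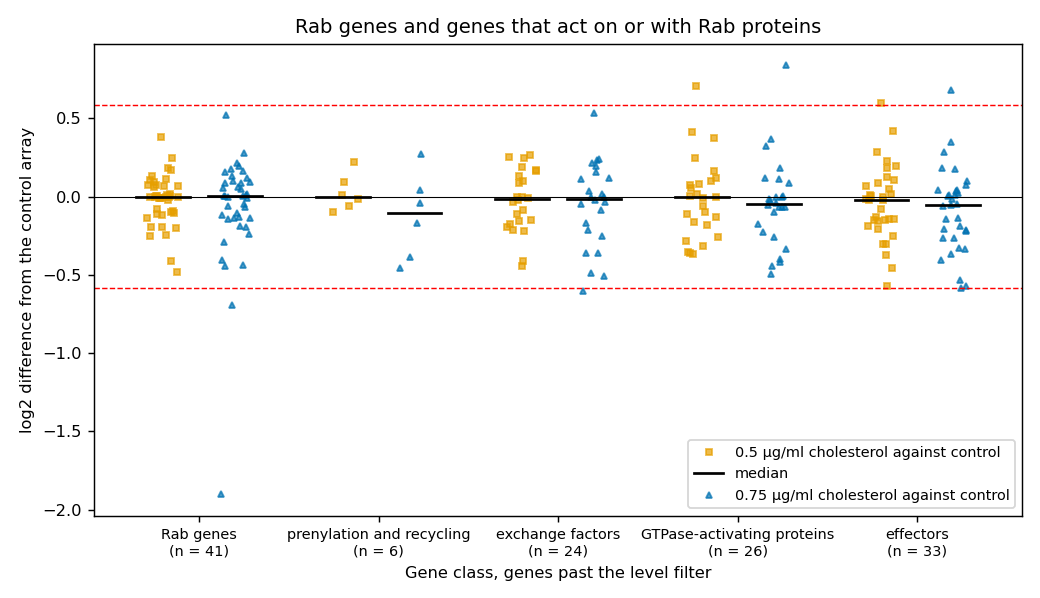
The log2 difference from the control of 41 Rab genes and of 89 genes that act on or with Rab proteins, by class (squares, 0.5 µg/ml; triangles, 0.75 µg/ml; black bars, medians), with 1.5-fold as dashed lines. The lowest median, -0.10, is that of the prenylation and recycling genes at 0.75 µg/ml. It counts Chml by its measured values, which are under background on both arrays. Without Chml the middle value of that class is that of Gdi2, -0.04, and is not the lowest. The points beyond the lines are Rab34, Rab6b, Tbc1d2, Sytl1, Ric1, Evi5 and Sytl2.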

How the data were processed

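In the deposited table each probe set has 1 linear intensity per array, judging by its values. Per the labels, RNA came from Trizol extraction and carried biotin from a whole-transcript sense protocol. No source used here names the authors' software, background correction or normalization. The platform annotation paired 19572 of 22206 transcript probe sets with 1 gene symbol and 0 with several, and left 2634 unnamed here. Log2 was taken with a floor of 1, under which 0 values fell, with no further normalization. The brightest probe set stood for a gene, and no Rab gene had more than 1. Genes passed the level filter at a mean log2 value of 5.02, the median over all 28846 probe sets (an intensity of 32.4), which 19.8% of negative controls also did. Differences are between 2 arrays, counted from 1.5-fold, with 2-fold as an alternative. A lower bound of a fold sets the dim value to 102.

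Genes named were all members, and regulators or effectors past 1.5-fold in a dose against the control with the brighter array above background, with others marked as chosen for their role or after their values were seen, among them those past 1.5-fold between the doses. Members, lists and roles were chosen with earlier results of these data known. Alternatives changed the floor, filter, log scale, normalization, probe set rule, background level and fold. The counting step was run on simulated data with 2-fold changes added, which holds no variation between cultures and does not show how firm the counts are. Python 3.11.15, numpy 2.4.6, pandas 2.3.3 and matplotlib 3.10.9 were used.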

Additional observations from a re-analysis of the deposited data

How the results depend on the processing

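The count of 2 Rab genes at least 1.5-fold lower at 0.75 µg/ml than in the control was 0 with values under background raised to it, 0 among the 30 genes above background on all arrays, 0 among the 31 with a mean above background, 1 on a scale of log2(value + 16) and 1 at 2-fold, in the last case Rab34. The single gene between the doses was 0 with dim values raised and 0 among the 30 or the 31 genes. At 0.5 µg/ml the count of 0 became 1 without the level filter, and stayed 0 under the other alternatives. Centring each array on the median of its kept genes gave a median over the 41 Rab genes of 0.065, in place of 0.002, at 0.75 µg/ml against the control and of 0.067, in place of 0.0096, between the doses, and a median of 0.019, in place of -0.04, for regulators and effectors. Raising dim values changed Rab34 and Rab6b to a difference of 0, and left 0.30 for Tbc1d2 and -0.12 for Ric1 at 0.75 µg/ml. With the 99th percentile of negative controls, an intensity of 670.1, as the background level, 11 Rab genes were above it on all arrays in place of 30. The other 49 of 62 recomputed summary values stayed within set limits. For a median the limit was an interval of the main median over the genes of the set. That interval reflects spread over genes, not over cultures. For a count it was the same count or one within 1.5 times it. Some alternatives could not change a result, such as the probe set rule for Rab genes or a narrower filter for a count of 0. Of 440 recomputed values of single genes, 432 moved by less than the SD of positive-control probe sets between the arrays. That SD was 0.31 at 0.75 and 0.30 at 0.5 µg/ml, and 0 of the genes past 1.5-fold changed side. Many of these values could not move. The probe set rule changes no Rab gene, and raising dim values changes no gene above background on all arrays. Centring shifts every gene by the same amount. The count is therefore no measure of how firm a single value is. No paired analysis was possible because each condition had 1 array. With 1 array a condition, no difference of any size could be set against variation between cultures. For the 24 genes under background on all arrays, no fold and no lower bound of a fold was measured, since no array had them above background.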

Other observations

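After Sytl1, the 4 widest differences from the control at 0.75 µg/ml among listed genes above background on all arrays, named here after their values were seen, ran from 1.41-fold to 1.45-fold. Dennd5a, an exchange-factor gene of the DENN family, was at 668 on the control array, 604 at 0.5 and 967 at 0.75 µg/ml, and its relative Dennd4a at 565 on the control array, 501 at 0.5 and 398 at 0.75 µg/ml. The DENN genes named here thus lay on opposite sides of the control at the high dose, by 0.53 and -0.51 on the log2 scale, and Dennd5a was 1.60-fold higher at 0.75 than at 0.5 µg/ml. Plin3, a lipid droplet coat protein also described as an effector of Rab9, was at 195 on the control array, 171 at 0.5 and 134 at 0.75 µg/ml. Rab3ip, an exchange factor for Rab8, was at 249 on the control array, 224 at 0.5 and 177 at 0.75 µg/ml. Plin3, Rab3ip and Dennd4a had their lowest value at 0.75 µg/ml and their highest on the control array.

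Some deposited values were identical on a pair of arrays. Of the 56 Rab genes, 7 had such a pair, equal within 0.0001%, or 12.5%, against 9.22% of all 19505 genes. Rab5a, Rab24, Rab30 and Rab31 had identical values on the 0.5 µg/ml and control arrays, Rab13 and Rab19 on the 0.75 and 0.5 µg/ml arrays, and Rab3b on the 0.75 µg/ml and control arrays. Among genes above background on at least 1 array the shares were 9.38% of 32 Rab genes and 5.23% of 8012 genes. For values equal within 0.1% these shares were 18.8% and 7.21%, and Rab35 on the control and 0.5 µg/ml arrays was among them. The cause was not tested, and a difference of exactly 0 in the genes with identical values is a property of the deposited values.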
